A study of Mus musculus with 14 samples.

Results

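The circadian clock genes Bmal1, Clock, Per1, Per2, Per3, Cry1, Cry2, Nr1d1, Nr1d2 and Dbp were examined in CUT&Tag peak lists of murine muscle stem cells (MuSCs) that had received BMP6 or vehicle. These are 10 of the 21757 protein-coding genes of the GENCODE annotation on GRCm39. A peak was assigned to a gene when it overlapped the canonical transcript extended by 60 kb on both sides, and 1 peak can lie in such a window and still be closer to another gene. The window was chosen by a measured value, a strong pSMAD1/5/9 peak far upstream of Bmal1, and the genes were selected with results of these data known. Peak counts, positions and signal ranks are therefore given as a description, with no test.

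CUT&Tag maps where an antibody target sits on chromatin by cutting and tagging the DNA beside the bound antibody. It was applied to phosphorylated SMAD1/5/9 (pSMAD1/5/9), the receptor-activated SMADs of the BMP pathway, to their partner SMAD4, and to H3K27ac, a histone mark of active promoters and enhancers. MuSCs came from female Tg(Pax7-EGFP)Tajb mice on a C57BL/6N background at 9 weeks of age and were sorted by FACS for the GFP signal, so a cell entered the study through activity of the Pax7 reporter. Per the methods, the sorted cells were first cultured in medium with serum, basic FGF and leukemia inhibitory factor under low oxygen. They were therefore cultured and not freshly isolated cells when stimulated. All cells were then kept serum-free for 6 h with 200 ng/mL soluble BMPR1A, a decoy receptor. After that they received 100 ng/mL BMP6 or, as control, the vehicle of HCl and BSA for 1 h. Each library was made from 100000 cells, with 2 biological replicates per antibody and condition. Each condition and antibody is represented by 1 consensus list of the peaks that passed an irreproducible discovery rate (IDR) of 0.05 between both replicates. A missing peak means only that none passed this threshold. The lists held 7339 pSMAD1/5/9 peaks after BMP6 and 949 in control, 12860 and 8577 SMAD4 peaks, and 78050 and 67790 H3K27ac peaks. Because no common scale is stated for the signals of the 6 lists, strength is given as the rank within a list, with rank 1 the strongest, and with the ranks by each of the 2 replicate columns in brackets. H3K27ac lay within 2 kb of the TSS of 7 of 7 muscle stem cell marker genes, 0 of 3 endothelial, 0 of 3 fibro-adipogenic and 1 of 3 leukocyte marker genes in both conditions. The leukocyte gene was Cd68.

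The mammalian clock is a feedback loop of transcription. BMAL1 and CLOCK form a heterodimer that binds E-boxes and activates Per, Cry, Nr1d1, Nr1d2 and Dbp, PER and CRY proteins accumulate and repress that heterodimer, and the nuclear receptors REV-ERBα (Nr1d1) and REV-ERBβ (Nr1d2) repress Bmal1 through ROR elements. DBP is an output factor that binds D-boxes, which occur in Per promoters among others, and these genes are rhythmic in skeletal muscle as in most tissues.

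The sequences under the pSMAD1/5/9 summits were read first, because they show what lay beneath the peaks described below. Shown are the strongest peak at these 10 genes (Bmal1), the strongest at one of their promoters (Nr1d2), both peaks near a Per1 or Nr1d1 TSS that hold an E-box, and 2 promoters that hold a D-box (Per3) or a ROR element (Dbp). Each run is 200 bases centred on the summit after BMP6, read 5′ to 3′ on the plus strand of GRCm39, which is the coding strand for Bmal1, Nr1d2, Per1 and Dbp and the opposite strand for Nr1d1 and Per3. Capitals mark exact matches on either strand to the motifs searched, which were the E-box CACGTG, the E-box variant CACGTT, the D-boxes TTATGTAA and TTACGTAA, the ROR element NTAGGTCA, the cAMP response element TGACGTCA, the SMAD sites GGAGCC and GGCGCC, the SMAD palindrome GTCTAGAC and the AP-1 site TGACTCA.
Bmal1 upstream region, chr7:112747062-112747261: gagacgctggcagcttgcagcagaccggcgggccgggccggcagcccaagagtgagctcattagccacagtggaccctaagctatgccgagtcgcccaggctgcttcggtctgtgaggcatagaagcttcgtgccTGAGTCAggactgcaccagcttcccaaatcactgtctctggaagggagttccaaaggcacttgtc
Nr1d2 promoter, chr14:4230323-4230522: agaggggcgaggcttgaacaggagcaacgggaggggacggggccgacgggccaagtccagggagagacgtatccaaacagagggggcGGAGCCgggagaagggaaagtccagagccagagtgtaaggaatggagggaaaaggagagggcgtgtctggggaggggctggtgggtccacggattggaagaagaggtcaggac
Per1 upstream region, chr11:68985786-68985985: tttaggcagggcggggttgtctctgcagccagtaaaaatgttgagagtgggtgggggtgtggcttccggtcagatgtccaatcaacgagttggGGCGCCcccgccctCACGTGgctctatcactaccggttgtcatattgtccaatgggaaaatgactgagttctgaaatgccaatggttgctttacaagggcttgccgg
Nr1d1 intron 1, chr11:98664648-98664847: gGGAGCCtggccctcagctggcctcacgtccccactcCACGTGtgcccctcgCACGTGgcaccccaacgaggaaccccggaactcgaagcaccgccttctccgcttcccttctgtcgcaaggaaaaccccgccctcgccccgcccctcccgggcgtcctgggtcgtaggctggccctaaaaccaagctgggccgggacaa
Per3 promoter, chr4:151129121-151129320: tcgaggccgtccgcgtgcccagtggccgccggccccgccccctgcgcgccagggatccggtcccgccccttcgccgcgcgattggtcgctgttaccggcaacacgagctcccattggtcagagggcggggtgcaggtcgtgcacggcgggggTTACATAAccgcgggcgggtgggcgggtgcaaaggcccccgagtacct
Dbp promoter, chr7:45354179-45354378: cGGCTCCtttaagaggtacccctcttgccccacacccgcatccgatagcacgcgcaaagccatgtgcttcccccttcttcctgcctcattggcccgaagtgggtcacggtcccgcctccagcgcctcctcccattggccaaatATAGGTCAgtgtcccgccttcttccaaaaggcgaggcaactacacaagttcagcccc

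In these runs the capitals are an AP-1 site at Bmal1, a GGAGCC site at Nr1d2, a GGCGCC site followed by an E-box at Per1, a GGAGCC site and 2 E-boxes at Nr1d1, a D-box at Per3, and a GGAGCC site and a ROR element at Dbp. No marked match overlaps another. Other windows held none of the motifs searched. Among them were those of the strongest peak in the Per2 window (rank 171) and of the only Clock peak. Among all 28 pSMAD1/5/9 windows at the clock genes after BMP6, 3 (10.7%) held the E-box, against 4.21% of all windows in the list. The third E-box window lay 24718 bp downstream of the Nr1d1 TSS, closest to Thra. GGAGCC was present in 10 windows (35.7%, against 25.2% of the list) and GGCGCC in 5 (17.9%, against 7.75%), and at the strongest Bmal1 peak neither was found in the window. AP-1, present in 15.5% of all windows, was found in 1 of the 28 windows (3.57%), that of the strongest Bmal1 peak. The D-box TTATGTAA was found in 1 window (list 0.286%), the ROR element in 1 (1.54%), the cAMP response element in 1 (0.927%), CACGTT in 2 (2.88%), and the D-box TTACGTAA (list 0.0681%) and the SMAD palindrome (0.518%) in 0. Under the SMAD4 summits after BMP6, 6 of 42 windows (14.3%) held the E-box, against 4.28% of the list, whereas GGAGCC was in 10 of 42 (23.8%, list 23.6%), AP-1 in 6 of 42 (14.3%, list 15.1%) and GGCGCC in 6 of 42 (14.3%, list 7.53%). These windows overlap the pSMAD1/5/9 windows in part, so both counts share sequence. In the promoters themselves, from 250 bases before to 50 after the TSS, the E-box was present in 7.84% of all protein-coding genes and in 2 of the 10 clock genes, Per1 and Cry1. The D-box TTATGTAA was present in 0.933% of promoters and in Per2 and Per3. CACGTT was present in 4 of the 10 (5.01% of all promoters), GGAGCC in 4 (31.4%), GGCGCC in 1 (12.5%) and the ROR element in 1 (2.49%). AP-1 (4.72%), the cAMP response element (2.45%), the SMAD palindrome (0.267%) and the D-box TTACGTAA (0.138%) were in 0.

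After BMP6, 28 pSMAD1/5/9 peaks were listed at the clock genes, and 9 of 10 genes had at least 1 of them, against 43.7% of all protein-coding genes. Cry1 was the gene without one. In control cells, 4 peaks were listed at 3 of 10 genes (Per2, Nr1d1 and Dbp), against 10.9% of all genes. A peak after BMP6 and none in control was found at 6 of 10 genes, Bmal1, Clock, Per1, Per3, Cry2 and Nr1d2, against 33.3% of all genes. The windows were 125 to 228 kb long and held 1 to 9 TSSs of other protein-coding genes, and only 12 of the 28 peaks were nearest to the TSS of a clock gene.

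Near the TSS the counts were narrower. Within 2 kb of the TSS, pSMAD1/5/9 peaks were listed after BMP6 at 8 of 10 genes (all but Clock and Cry1), against 12% of all genes, and in control at 2 of 10 (Nr1d1 and Dbp), against 1.74%. Among the 11988 genes with H3K27ac at the TSS after BMP6, 21.7% had a pSMAD1/5/9 peak there, and among the 10 clock genes, all of which had the mark, 8 did. The mark was present at the TSS of 10 of 10 clock genes in both conditions, against 55.1% of all genes after BMP6 and 53.0% in control. For SMAD4, 7 of 10 genes had a TSS peak after BMP6 (17.8% of all genes) and 5 of 10 in control (12.4%). In the wider windows SMAD4 was listed at 9 of 10 genes after BMP6 (54.8%) and 8 of 10 in control (46.3%), and H3K27ac at 10 of 10 after BMP6 (82.4%) and 10 of 10 in control (81.6%).

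**Figure D1:**
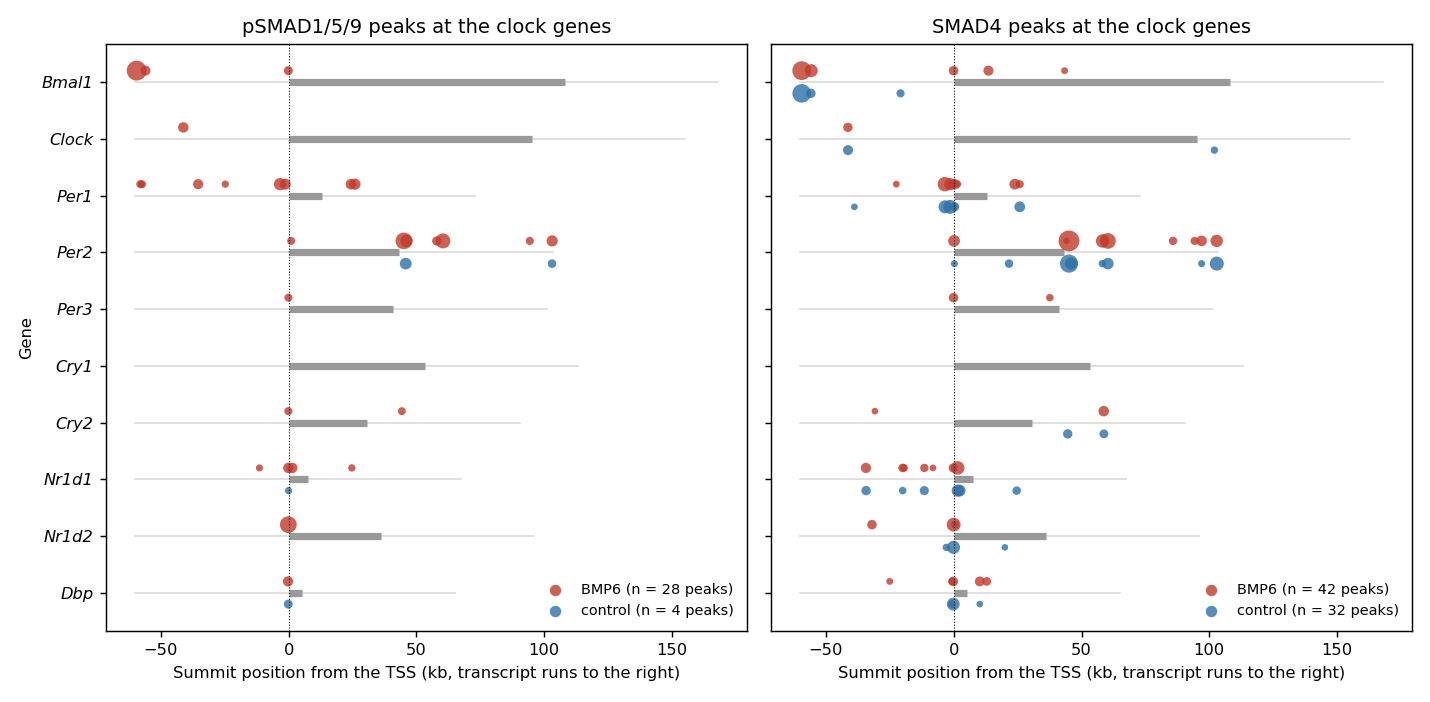
Position of every pSMAD1/5/9 peak (left) and SMAD4 peak (right) at the clock genes, as summit distance from the TSS in kb, with red for BMP6 and blue for control. Thick grey bars are the transcripts, thin lines the windows of 60 kb on both sides, and larger dots are stronger ranks within the list. The largest pSMAD1/5/9 dot stands far upstream of Bmal1, and Cry1 is empty in both panels.

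The activators differed in where their peaks lay. Bmal1, the partner of CLOCK and the activator that REV-ERBs repress, is a gene of 19 exons at chr7:112806643-112914735 (plus strand). The strongest pSMAD1/5/9 peak of its window after BMP6 (chr7:112746631-112747860) peaked 59481 bp upstream of the TSS and ranked 29 of 7339 (42 and 41 in the replicate columns, with signals of 62528 and 43042). Both replicate columns placed it in the strongest 1% of the list, and the nearest TSS was that of Bmal1.

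No control pSMAD1/5/9 peak was listed there, whereas SMAD4 was listed in both conditions. SMAD4 ranked 92 of 12860 after BMP6 (131 and 57) and 71 of 8577 in control (117 and 40), with summits 59488 and 59499 bp upstream. The replicate ranges of both conditions overlap. H3K27ac covered the site as well, ranking 758 of 78050 after BMP6 (181 and 2470) and 2592 of 67790 in control (2277 and 3531).

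A second pSMAD1/5/9 peak lay 56017 bp upstream at rank 2833 (3298 and 2367), beside SMAD4 peaks in both conditions. The promoter peak of Bmal1, 113 bp upstream of the TSS, ranked 3748 (3246 and 4321), in the weaker part of the list. SMAD4 was listed at the promoter after BMP6, 54 bp upstream at rank 5626 (5879 and 4922), and not in control. After BMP6, SMAD4 was also listed in intron 1, 13581 bp and 43383 bp from the TSS, and the pSMAD1/5/9 list had no peak at either site. A SMAD4 peak 20808 bp upstream at rank 5539 (4623 and 6721) was listed in control and not after BMP6. Had the windows been 20 kb on both sides, the strongest pSMAD1/5/9 peak of Bmal1 would have been the promoter peak at rank 3748.

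Clock, the histone acetyltransferase partner of BMAL1, is at chr5:76357715-76452806 (minus strand). Its single pSMAD1/5/9 peak after BMP6 had its summit 41210 bp upstream at rank 2429 (3618 and 1477), and the nearest TSS was that of Pdcl2. SMAD4 was listed at the same site after BMP6 at rank 5965 (4976 and 8697) and in control at rank 3218 (5563 and 1476). No SMAD peak of any list lay within 2 kb of the Clock TSS, although H3K27ac there ranked in the strongest 3.87% after BMP6 and 7.98% in control.

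The windows of the repressors held most of the peaks, but many of these were nearest to other genes. The windows of the 5 Per and Cry genes had 18 of the 28 pSMAD1/5/9 peaks after BMP6, and Per1 and Per2 had 15 of these. Nearest to the gene itself were 2 of 8 peaks at Per1, 1 of 7 at Per2, 1 of 1 at Per3 and 1 of 2 at Cry2. At the other genes these were 3 of 3 at Bmal1, 0 of 1 at Clock, 2 of 4 at Nr1d1, 1 of 1 at Nr1d2 and 1 of 1 at Dbp. PER1 and PER2 are the repressor subunits whose genes also respond acutely to signals. Per1 is at chr11:68989268-69002300 (plus strand). Of its 8 pSMAD1/5/9 peaks, 2 were nearest to the Per1 TSS, with summits 3382 bp upstream at rank 1253 (1172 and 1605) and 1374 bp upstream at rank 1963 (1820 and 2360). Neither had a control pSMAD1/5/9 peak.

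SMAD4 was present at both Per1 sites in both conditions. At the farther site, which holds the E-box printed above, SMAD4 ranked 906 after BMP6 (1579 and 458) and 1064 in control (924 and 1671). At the nearer site it ranked 2265 (1970 and 3200) and 759 (705 and 995). SMAD4 was also listed in the 5′ UTR of exon 1, 366 bp from the TSS after BMP6 at rank 4454 and 376 bp in control at rank 4374, where no pSMAD1/5/9 peak was listed. The other 6 pSMAD1/5/9 peaks of the Per1 window lay from 58045 bp upstream to 25958 bp downstream, at ranks 1896 to 5956, and were nearest to Aurkb, Borcs6, Tmem107, Hes7 and Aloxe3.

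Per2 is at chr1:91343701-91387046 (minus strand). In its window the strongest pSMAD1/5/9 peak after BMP6 lay 45095 bp from the TSS, just beyond the 3′ end of the transcript, at rank 171 (207 and 148, with signals of 43459 and 32111). Its summit was 991 bp from the TSS of Hes6, a Hes family repressor, and 46122 bp from the Per2 TSS a second peak at rank 1200 (1038 and 1696) was 36 bp from the Hes6 TSS. The control list had a peak across both, at rank 196 of 949 (177 and 226). SMAD4 ranked 27 after BMP6 (25 and 35) and 90 in control (96 and 86) near the first summit, the strongest SMAD4 peak in the windows of these 10 genes in the BMP6 list.

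Only 1 of the 7 pSMAD1/5/9 peaks in the Per2 window was nearest to Per2 itself. That peak, in intron 1 and 989 bp from the TSS, ranked 4940 (6113 and 3361). It overlapped no SMAD4 peak. SMAD4 was instead listed in the 5′ UTR of exon 1, 128 bp from the TSS, after BMP6 at rank 2697 (2269 and 4112), and in intron 1 in control, 240 bp from the TSS at rank 7275 (6759 and 7526). The remaining peaks were nearest to Ilkap, with the stronger at rank 412 (510 and 357), and to Erfe and Klhl30.

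Per3, at chr4:151088109-151129140 (minus strand), encodes the third PER protein. Its promoter had 1 pSMAD1/5/9 peak after BMP6, 81 bp upstream at rank 4873 (4608 and 4763), and 1 SMAD4 peak, 71 bp upstream at rank 5759 (6234 and 4759). No control SMAD peak of either antibody was listed in the Per3 window.

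The cryptochromes differed from each other. Cry1, which encodes a strong repressor of the heterodimer and is at chr10:84967564-85020949 (minus strand), had no pSMAD1/5/9 and no SMAD4 peak in either condition, but 7 H3K27ac peaks after BMP6 and 9 in control, including the promoter. Cry2, its paralog at chr2:92233915-92264474 (minus strand), had a promoter pSMAD1/5/9 peak after BMP6, 96 bp upstream at rank 4755 (3971 and 5540), and no SMAD4 peak within 2 kb of the TSS in either condition. Its other pSMAD1/5/9 peak lay 44296 bp downstream at rank 5106 and was nearest to Frey1.

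Of the REV-ERB genes, Nr1d2 had the strongest promoter pSMAD1/5/9 peak of these 10 genes. Nr1d2 is at chr14:4230545-4266624 (plus strand). Its pSMAD1/5/9 peak after BMP6 (chr14:4230211-4231383) had the summit 122 bp before the TSS and rank 165 of 7339 (131 and 330, with signals of 49746 and 26269). It was the only pSMAD1/5/9 peak in the window, and no control peak was listed. SMAD4 was listed at the same promoter in both conditions, at rank 1156 after BMP6 (700 and 2781) and 1097 in control (1297 and 989). The whole peak, 1173 bp long, held 3 E-boxes and 7 GGAGCC sites, of which only 1 GGAGCC site fell in the printed window. The whole intron 1 peak of Nr1d1 held 3 E-boxes as well. Whole peaks differ in length, and no share of the list is given for them.

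Nr1d1, at chr11:98658758-98666159 (minus strand), had pSMAD1/5/9 peaks on both sides of its TSS after BMP6. The promoter peak lay 123 bp upstream at rank 2477 (2263 and 2841), and the peak in intron 1 lay 1411 bp downstream at rank 2446 (2571 and 2318), over the 2 E-boxes printed above. The replicate ranges of these peaks overlap. In control, pSMAD1/5/9 was listed at the promoter, 34 bp upstream at rank 775 of 949 (818 and 709), and not in the intron.

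SMAD4 had the reverse arrangement at Nr1d1. In intron 1 it was listed in both conditions, at rank 1372 after BMP6 (1718 and 1111) and 1545 in control (1684 and 1452). At the promoter it was listed only after BMP6, 198 bp upstream at rank 6330 (5286 and 9014). The other pSMAD1/5/9 peaks of the window were weaker, at rank 5734 nearest to Thra and rank 6171 nearest to Msl1.

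Dbp, at chr7:45354512-45359627 (plus strand), encodes the PAR bZIP output factor. Its only pSMAD1/5/9 peak after BMP6 lay 233 bp upstream at rank 2604 of 7339 (2134 and 3541), and control cells had a peak 133 bp upstream at rank 490 of 949 (478 and 504). SMAD4 was listed at the same place, 179 bp upstream at rank 5480 after BMP6 (6201 and 4171) and 176 bp upstream at rank 1214 in control (923 and 2306). By rank within its list, the control SMAD4 peak was the higher of the pair in both replicate columns. Whether the amount bound differed was not tested.

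**Figure D2:**
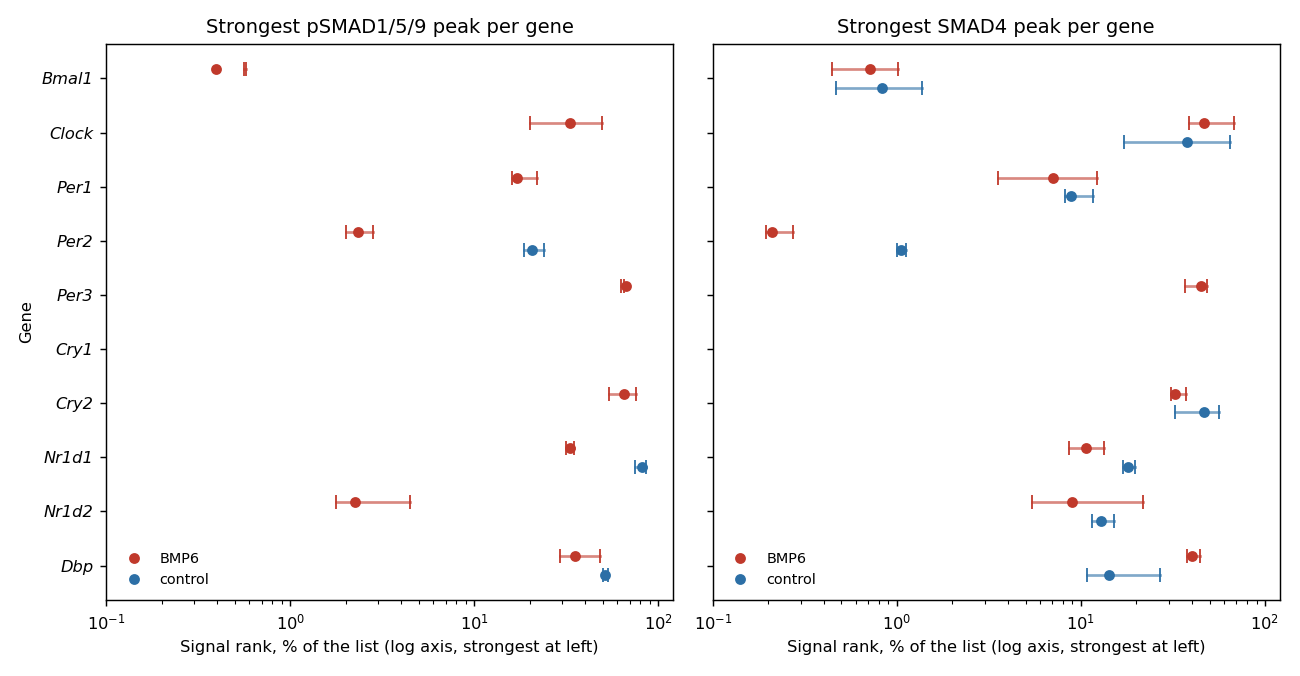
Rank of the strongest pSMAD1/5/9 peak (left) and SMAD4 peak (right) in the window of each clock gene, as percent of its list on a log axis, with dots for the consensus, ticks for both replicate columns, red for BMP6 and blue for control. Bmal1 stands at 0.395% for pSMAD1/5/9 after BMP6 and has no control value, Per2 at 2.33% and Nr1d2 at 2.25%, no dot means no listed peak, and a dot can lie outside its ticks because the summed signal is ranked anew.

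Ordered by rank, the 9 promoter pSMAD1/5/9 peaks after BMP6 began with Nr1d2, followed by Per1, Nr1d1 (intron 1 and promoter), Dbp, Bmal1, Cry2, Per3 and Per2. Of the 8 neighbouring pairs in this order, 7 had overlapping ranges of their replicate ranks. The exception was Nr1d2, whose replicate ranks of 131 and 330 were both stronger than the 1820 and 2360 of Per1. Across all 28 peaks the ranks of both replicate columns differed by a median factor of 1.40, close to the 1.41 of the whole list, and 24 of 28 differed by less than 2-fold. The median rank of the 28 peaks stood at 35.9% of the list, and 4 of them were in the strongest 10%, at Bmal1, Nr1d2 and 2 in the Per2 window.

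**Figure D3:**
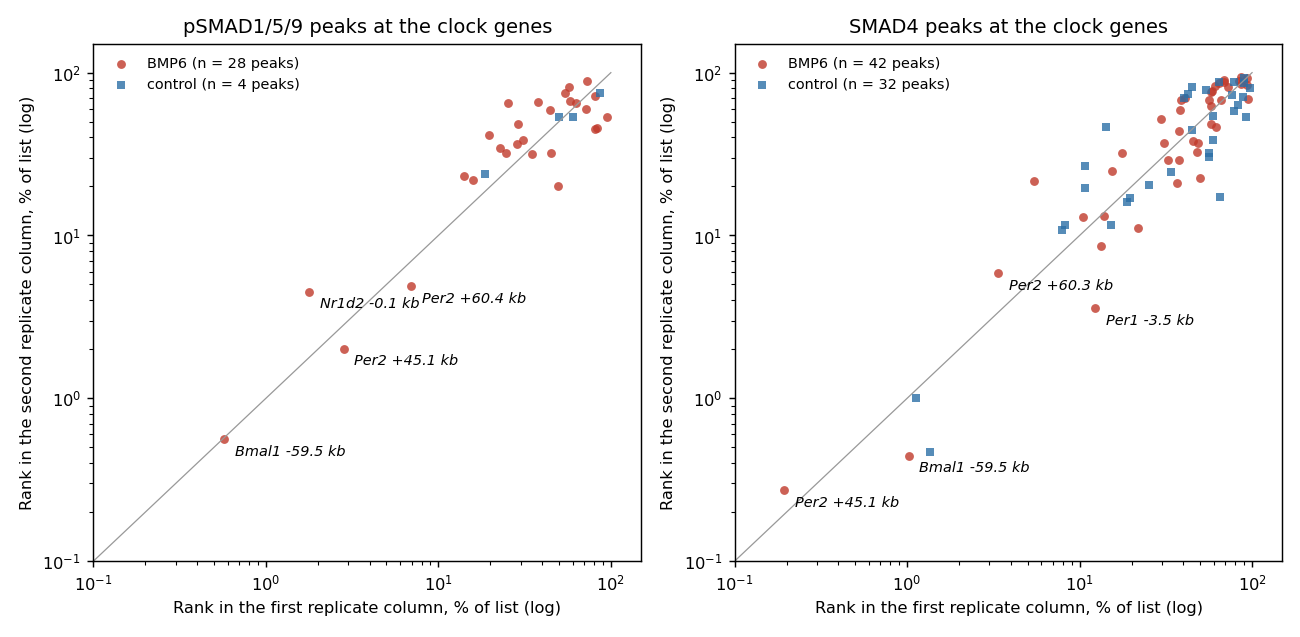
Rank by the first replicate column (x axis) against rank by the second (y axis), each as percent of the list on log axes, for pSMAD1/5/9 (left) and SMAD4 (right) peaks at the clock genes. Red circles are BMP6, blue squares control, and the grey line marks equal ranks. The Bmal1 upstream peak lies on the line for pSMAD1/5/9, and the 4 strongest peaks after BMP6 are named by gene and summit distance.

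To ask which pSMAD1/5/9 sites were already listed without BMP6, peaks were overlapped between conditions by at least 1 bp. After BMP6, 5 of 28 peaks (17.9%, Wilson 95% interval 7.88 to 35.6) overlapped a control pSMAD1/5/9 peak, against 11.4% of the whole list. They were the promoter peaks of Nr1d1 and Dbp and 3 peaks in the Per2 window, nearest to Hes6 and Klhl30. In the other direction, 4 of 4 control peaks overlapped a BMP6 peak (84.7% of the list). Intervals cover counting error over peaks only.

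The other antibodies were overlapped in the same way. After BMP6, 23 of 42 SMAD4 peaks (54.8%) overlapped a control SMAD4 peak, against 45.5% of the list, and for H3K27ac 104 of 138 (75.4%), against 72.0%. The order of the antibodies was that of the whole lists. From control, 23 of 32 SMAD4 peaks (71.9%, list 69.7%) overlapped a BMP6 SMAD4 peak and 9 did not. For H3K27ac these were 113 of 126 (89.7%, list 86.8%) and 13. Of the 28 pSMAD1/5/9 peaks, 20 (71.4%, 52.9 to 84.7) overlapped a SMAD4 peak after BMP6 (list 73.2%) and 17 (60.7%) a control SMAD4 peak (list 57.2%). All 28 overlapped H3K27ac in each condition, against 98.2% and 97.5% of the list.

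Peaks within 2 kb of the TSS of their clock gene, called promoter peaks here, and all other peaks of the windows were also counted apart. Of the 9 promoter peaks of pSMAD1/5/9, 7 overlapped SMAD4 after BMP6 and 4 overlapped it in control, the latter at Per1, Nr1d1 (intron 1), Nr1d2 and Dbp. Of the 19 other peaks, 13 overlapped SMAD4 after BMP6 and 13 in control. Some of these 19 lay at the TSS of another gene, such as those 36 and 991 bp from Hes6 and 38 bp from Ilkap. The whole list was split by the TSS of any protein-coding gene, so its groups are not defined alike. There, 57.3% of 2483 peaks at any TSS and 57.2% of 4856 other peaks overlapped control SMAD4. No difference between promoter and other peaks was tested.

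**Figure D4:**
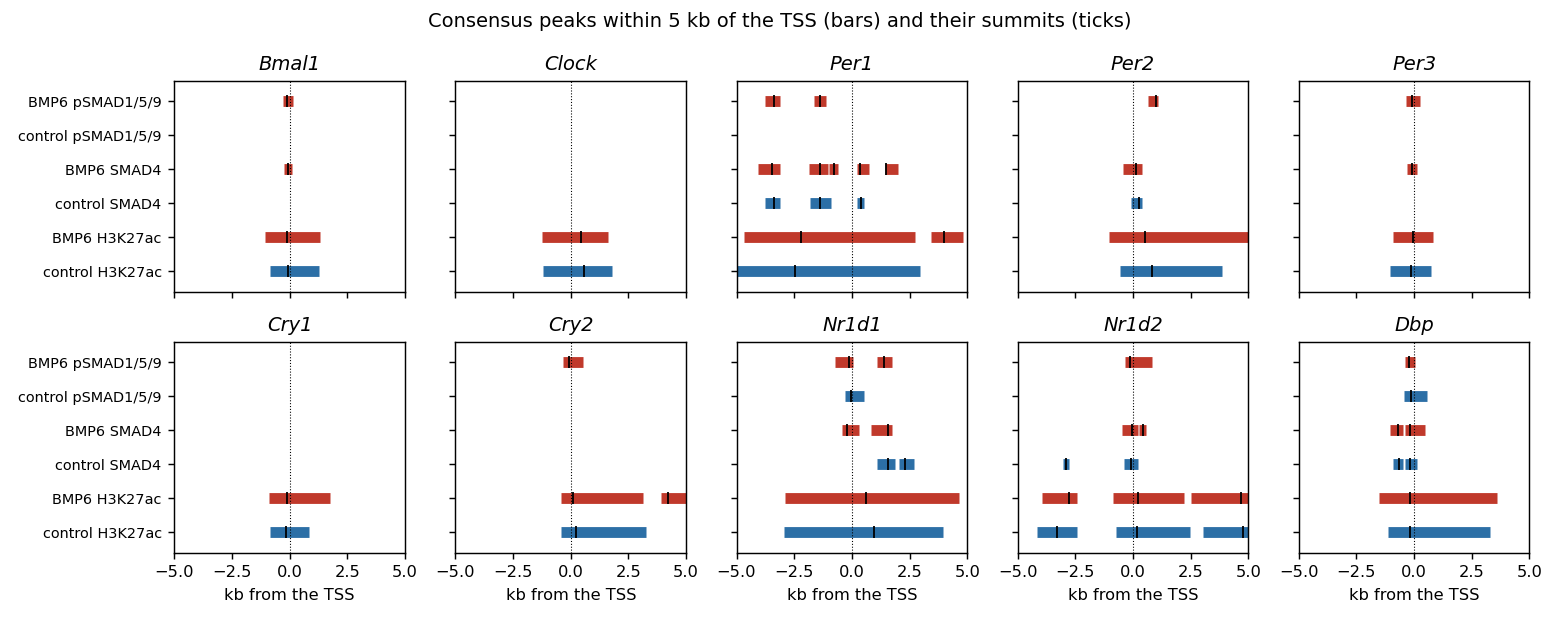
Consensus peaks within 5 kb of the TSS of each clock gene, with the distance from the TSS in kb on the x axis and 1 row per list. Bars span the peaks, black ticks mark summits, red is BMP6 and blue control, and transcripts run to the right. Clock and Cry1 show H3K27ac bars only, and Nr1d1 and Dbp are the genes with a control pSMAD1/5/9 bar.

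H3K27ac at the TSS ordered the clock genes by another antibody. Nr1d2 had the strongest peak, at rank 673 of 78050 after BMP6 (412 and 1224) and 431 of 67790 in control (248 and 1563). Per1 followed at rank 984 (5196 and 600) and 2036 (6114 and 666), and its replicate columns differed more from each other than the conditions did. Clock, which had no SMAD peak at its TSS, was next after BMP6 at rank 3024 (1888 and 4531).

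Cry1 and Per3 had the weakest promoter marks after BMP6, at rank 16777 (18657 and 14833) and 17685 (12708 and 22671). As a share of the list, the TSS peak stood at 7.89% after BMP6 and 15.6% in control at Bmal1, 8.85% and 19.3% at Cry2, 9.20% and 17.0% at Dbp, 8.90% and 3.49% at Per2, and 7.39% and 7.46% at Nr1d1. The replicate ranks within a condition spread widely after BMP6 at Dbp (18495 and 3427), Cry2 (3480 and 11474), Bmal1 (3205 and 9909) and Per2 (12971 and 4323). No change of the mark was tested.

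The 60 kb edge decided which peaks were counted. Just inside 60 kb lay the pSMAD1/5/9 peak of the Per2 window at 59.248 kb from the transcript (rank 1907) and the Bmal1 peak at 58.783 kb (rank 29). Just outside lay peaks at 61.004 kb from Dbp (rank 1441) and at 63.07 kb from Per2 (rank 1306).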

How the data were processed

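CUT&Tag libraries of 12 samples (pSMAD1/5/9, SMAD4 and H3K27ac, BMP6 or vehicle, 2 biological replicates each) entered 6 consensus lists. The 2 libraries made with no primary antibody were not used here. Per the labels and methods, the authors brought the reads of an antibody to 1 depth by subsampling, aligned with Bowtie2 2.5.4 to GRCm39, filtered with SAMtools 1.21, called peaks per replicate with JAMM, and combined replicates with IDR at a threshold of 0.05. The deposited signal of a peak is a score of the peak caller without a fixed range, and it equalled the sum of both replicate columns. The deposited −log10 of the IDR was used for the threshold of 0.01, and the deposited scaled score was not used for ranking. Read counts are not in the lists, and the depth left after subsampling is not given in the sources used here. Replicate columns carry no number. The consensus summit was used as listed.

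Positions were converted to 1-based coordinates. Canonical transcripts came from GENCODE on GRCm39 in place of the RefSeq isoforms that the methods name. A peak belonged to a gene when it overlapped the transcript with 60 kb on both sides, and was at a TSS when it overlapped 2 kb on either side. Peaks overlapped when sharing at least 1 bp (Python 3.11.15, pandas 2.3.3, numpy 2.4.6), checked on the lists with bedtools 2.31.1. Sequences were read from GRCm39 with pysam 0.24.0 and windows of 200 bp were searched for motifs on either strand. Intervals were Wilson intervals from scipy 1.17.1, and figures were drawn with matplotlib 3.10.9. The overlap procedure was also tested on simulated data. No differential binding was tested.

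The genes, the window, the gene lists and the motifs were chosen with earlier results of these data known. Named with values were all 10 genes, the 3 other clock genes with the strongest BMP6 pSMAD1/5/9 peaks, genes whose TSS was nearest to the strongest peak of a list, and the 3 genes most like Bmal1 by Euclidean distance between log10 ranks over 6 lists. The neighbours of the other peaks and the B box were named after their values were seen. Alternatives were the IDR threshold, windows of 20 kb or 2 kb around the TSS, the nearest TSS, the overlap required, motif windows of 500 bp, ranking by IDR, and each replicate column alone.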

Additional observations from a re-analysis of the deposited data

How the results depend on the processing

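No paired analysis was possible because each list is 1 consensus per condition, its replicate columns carry no number, and no result comes from a test. At an IDR of at most 0.01, the pSMAD1/5/9 peaks at the clock genes went from 28 to 16 after BMP6 and from 4 to 1 in control, where 1 of the 3 genes kept a peak, and the SMAD4 peaks went from 42 to 24 and from 32 to 13. Within 2 kb of the TSS, 9 and 2 pSMAD1/5/9 peaks and 13 and 7 SMAD4 peaks were left, and 5 genes in place of 8 had a control SMAD4 peak. Counting only peaks nearest to a clock gene left 12 and 2 pSMAD1/5/9 peaks and 19 and 15 SMAD4 peaks. With an overlap of at least 50% of both peaks, the share found in control fell to 7.14% for pSMAD1/5/9, 38.1% for SMAD4 and 65.2% for H3K27ac, and that of pSMAD1/5/9 peaks with H3K27ac to 0%, since H3K27ac peaks are wider. At an IDR of at most 0.01 it rose to 75% for SMAD4 and 84.6% for H3K27ac, and 100% of pSMAD1/5/9 peaks overlapped SMAD4. The other 44 of these values kept within 1.5 times for counts or, for shares, within the Wilson interval over peaks. That interval is wide here and is no replicate spread. Inside it, the pSMAD1/5/9 share found in control rose from 17.9% to 31.25% at an IDR of at most 0.01. The share of pSMAD1/5/9 peaks with SMAD4 fell from 71.4% to 57.1% with an overlap of at least 50%. For the strongest rank per gene, the spread was the standard deviation of its ranks by the 2 replicate columns. With the first column alone, 4 of 29 ranks moved beyond it, and with the second 10 of 29. These counts do not measure stability, because each column was judged by a spread it helps to set. For pSMAD1/5/9 after BMP6, Bmal1 (29 to 42 and 41) counted as moved and Clock (2429 to 3618 and 1477) did not. Ranked by IDR, 14 of 29 moved. There Bmal1, Per2 and Nr1d2 took rank 1 for pSMAD1/5/9 because their −log10 IDR of 5 was the highest in the list and ties shared the best rank. Rank 1 by IDR thus does not place them above other peaks at that value. With 2 replicates and no read counts in the lists, counting error could not be set beside the replicate spread.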

Other observations

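Among 19 further clock genes (kinases, ROR receptors and PAR bZIP or bHLH factors among them), 14 had a pSMAD1/5/9 peak within 60 kb after BMP6 (against 43.7% of all protein-coding genes) and 5 had one within 2 kb of the TSS (12%). In control, 5 had one within 60 kb (10.9%) and 3 within 2 kb of the TSS (1.74%). The strongest pSMAD1/5/9 peak after BMP6 was at Bhlhe40, which encodes the E-box repressor DEC1, 575 bp from the TSS at rank 56 (30 and 182 in the replicate columns), with a control peak at rank 88 of 949. Tef, a PAR bZIP relative of Dbp, followed at rank 296 (246 and 514), 253 bp upstream, also with a control peak. Bhlhe41, which encodes DEC2, came next at rank 1152 (783 and 2260), 612 bp upstream, without one. For SMAD4, the strongest peak in these windows was in that of Btrc, an E3 ligase subunit gene, at rank 5 of 12860 after BMP6 and 3 of 8577 in control, and this gene was named after its values were seen.

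The genes whose strongest ranks over the 6 lists were most like those of Bmal1 were Scamp4, Adat3 and Gm49322, at a distance of 0.497 on the log10 scale. They share the same peaks on chromosome 10 and count as 1 locus. A list without a peak counted as 100%. This held for control pSMAD1/5/9 at Bmal1 and at all 3 genes, so that list adds only a shared absence.

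In the Per1 window, 4 of the 28 pSMAD1/5/9 summit windows held the B box of tRNA genes (GGTTC, then any base, A, any 2 bases and CC, on either strand), which was present in 0.858% of the list. Their ranks were 4810, 5109, 2663 and 1896, and they were nearest to Aurkb, Borcs6 and Aloxe3. The motif was searched after the sequences had been read, so this is a description. Of the SMAD4 windows at the clock genes, 1 of 42 after BMP6 and 1 of 32 in control held it, both nearest to Aloxe3.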
